A study of Mus musculus with 15 samples.

Results

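The variable segments of the T cell receptor alpha and beta chains were described in 15 RNA-seq libraries of mouse regulatory T cells (Tregs). All rows of the count table whose symbol begins with Trav or Trbv and a number were taken, which gave 162 of 45706 gene rows. Of these, 128 were Trav segments on chromosome 14 (52427928 to 53977678, mm10) and 34 were Trbv segments on chromosome 6 (40891229 to 41558452). Tregs depend on the transcription factor Foxp3 and hold immune responses in check. They had been sort-purified as Foxp3-positive T cells from spleen, thymus and peritoneal cavity of adult mice on the C57BL/6 background that were backcrossed to a Foxp3 reporter line. One genotype was RelB-dDC and the other was its littermate controls; the labels do not spell the short name dDC out, and controls and dDC mice share the reporter and the background. There were 3 control and 3 dDC libraries of spleen Tregs, 3 and 2 of thymus Tregs, and 2 and 2 of peritoneal Tregs. The labels do not say whether libraries of a group came from separate animals, so p-values measure the spread between these libraries, which may be technical.

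Each developing T cell joins 1 V segment to a J segment at its alpha locus, and 1 V segment to a D and a J segment at its beta locus. The RAG recombinase makes the cuts, and the joined V segment encodes most of the variable domain of that chain. The alpha locus can rearrange again on the same chromosome, each time with a V segment further from the J segments, whereas the beta locus normally does so far less. In a bulk library the counts over V segments are therefore a profile of which receptors the sorted cells carry, weighted by the RNA each cell holds. Many Trav segments exist in near-identical copies, marked by d or n in the symbol, because a stretch of the mouse alpha locus is duplicated.

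A V segment consists of a short leader exon and a V exon, and the V exon ends at the point where recombination joins it to the next segment. The last 60 bases of the V exon are shown for the 8 Trbv segments on which the comparisons below turn, because they carry the conserved cysteine codon next to the junction and show how the segments differ. Sequences are from the GENCODE M21 transcripts on GRCm38 (the same build as mm10), 5′ to 3′ on the strand of the gene. Capitals mark TGTGCNAGC, the codons for cysteine, alanine and serine that open the loop at the junction.
Trbv12-1 (chr6:41114008-41114067, plus strand): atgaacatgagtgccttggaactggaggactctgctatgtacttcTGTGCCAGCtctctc
Trbv12-2 (chr6:41119305-41119364, plus strand): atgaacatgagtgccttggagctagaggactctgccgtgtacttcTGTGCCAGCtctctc
Trbv2 (chr6:41047936-41047995, plus strand): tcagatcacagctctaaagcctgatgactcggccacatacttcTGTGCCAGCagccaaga
Trbv19 (chr6:41178989-41179048, plus strand): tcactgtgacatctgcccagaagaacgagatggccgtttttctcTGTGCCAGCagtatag
Trbv1 (chr6:40891826-40891885, plus strand): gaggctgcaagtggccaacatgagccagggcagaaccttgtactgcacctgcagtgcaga
Trbv3 (chr6:41048769-41048828, plus strand): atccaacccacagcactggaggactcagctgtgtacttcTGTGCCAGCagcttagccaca
Trbv16 (chr6:41152171-41152230, plus strand): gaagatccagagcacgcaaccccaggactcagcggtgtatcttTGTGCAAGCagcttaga
Trbv31 (chr6:41557693-41557752, minus strand): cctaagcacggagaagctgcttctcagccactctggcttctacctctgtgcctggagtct
The motif was searched on both strands in the last 60 bases of all 162 segments. It was found in 16 of 21 Trbv genes (76.2%), in 4 of 13 Trbv pseudogenes and in 0 of 128 Trav segments, and on the other strand in none. The Trbv1 and Trbv31 windows do not hold these letters. Trbv31 lies in the opposite orientation at the far end of the locus. Trbv12-1 and Trbv12-2, which older serology calls Vβ5.2 and Vβ5.1, are 88.3% identical over their transcripts.

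Total counts lay between 15714286 and 24332044 per library. The Trav rows held 3712 to 11064 counts per library and the Trbv rows 12765 to 33400. Foxp3 was at 179 to 327 CPM (read counts scaled to a common library total with TMM factors) in all 15 libraries, and of the markers of cytotoxic T cells, Cd8a was at 18.4 CPM or less and Cd8b1 at 8.81 to 58.9 CPM. RNA of other cells was present and differed by tissue. The summed level of 7 B cell markers was 338 to 978 CPM in spleen, 42.1 to 89.2 CPM in thymus and 1070 to 2205 CPM in peritoneal cavity, and that of 5 macrophage markers reached 1373 CPM in 1 peritoneal control library. The sum of 3 erythroid markers, Hbb-bs, Hba-a1 and Alas2, was 1561 to 5073 CPM in spleen, 0.687 to 271.9 CPM in thymus and 1.13 to 263 CPM in peritoneal cavity. The part of these cells in the results was not tested. By Trav usage, 5 libraries stood apart from the other 10, and these were spleen control 3, spleen dDC 1, thymus control 3, thymus dDC 1 and peritoneal dDC 1. They are described with the Trav segments, and the calls are also given without them.

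Usage is the share of 1 segment among all Trav or all Trbv counts of a library. Of the 34 Trbv segments, 20 were detected in all 15 libraries and 6 were at 0 in all, and the 13 pseudogenes together held 0.754% of Trbv counts. Trbv13-2 (Vβ8.2) had the highest mean usage, 11.4% of Trbv counts, and ranked first in 11 libraries and among the first 3 in all 15. It was followed by Trbv19 (Vβ6) at 9.68%, Trbv3 at 9.26%, Trbv13-3 at 7.91%, Trbv1 at 7.73%, Trbv13-1 at 6.68%, Trbv16 at 6.67% and Trbv20 at 5.80%. Longer rows collect more reads, so the order among segments was also taken per base. Per base, Trbv13-2 was first in 14 libraries with 13.2%, Trbv13-3 second with 9.17% and then Trbv3 with 8.03%, while Trbv19 fell behind 6 segments to 6.75%. Trbv1 (7.31%), Trbv13-1 (7.20%), Trbv20 (6.83%), Trbv19 and Trbv16 (6.61%) lay close together, and their order differed between libraries. The 8 most used Trbv segments held 63.0 to 70.0% of the counts of a library. The 3 segments of the Trbv13 family, which encode the Vβ8 chains, held 23.5 to 29.6%.

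**Figure D1:**
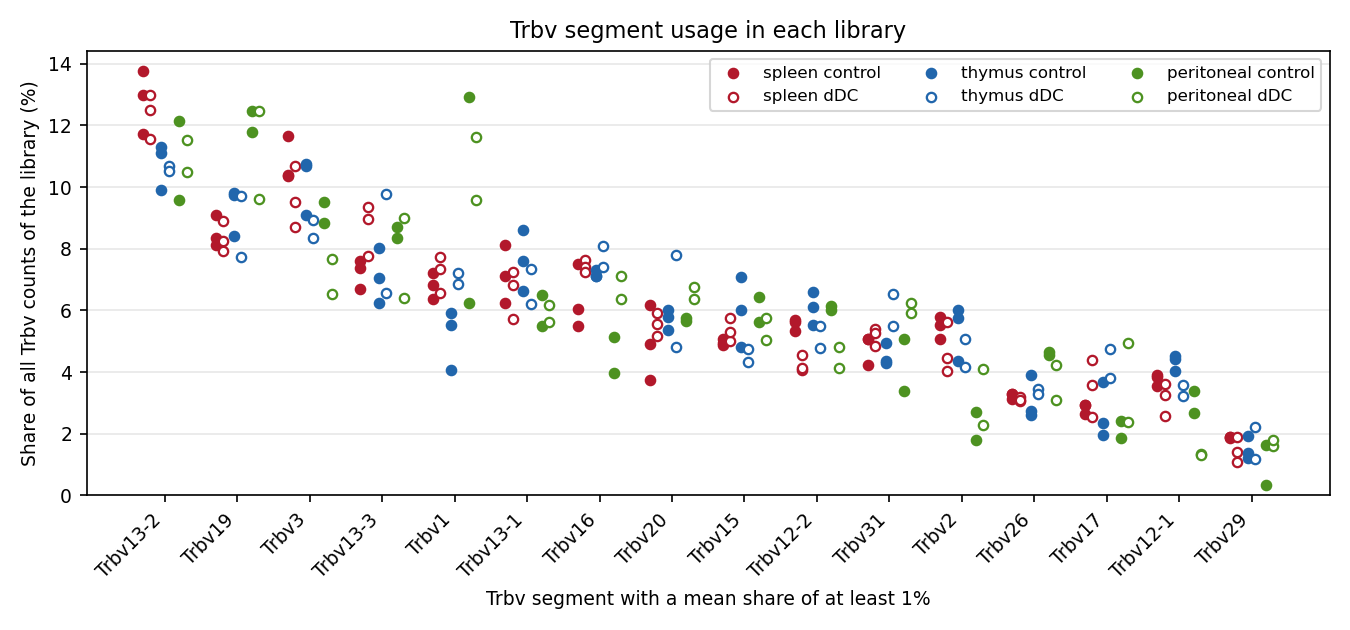
Share of all Trbv counts of the library (y axis, percent) for the 16 Trbv segments with a mean share of at least 1% (x axis, in the order of that mean). Each point is 1 library, filled for control and open for dDC, with 1 color per tissue. Trbv13-2 lies highest for most libraries, and at Trbv19 the 4 peritoneal libraries lie above the 6 spleen libraries.

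Trbv usage varied little within a group. The median coefficient of variation over the 16 segments with a mean share of at least 1% was 6.36 to 14.0% in the 6 groups. Trav usage varied more, with a median of 25.5 to 41.8% over 36 segments, on lower counts. The median biological coefficient of variation in edgeR was 0.202 for the 23 tested Trbv rows and 0.657 for the 90 tested Trav rows, so a difference of a given size was harder to resolve for Trav. Over all tested genes it was 0.551. Over genes outside both chains with similar abundance it was 1.019 for the range of the Trav rows and 0.343 for that of the Trbv rows. Shares of 1 chain are also tied, since a fall in 1 segment goes with rises in others. Percentages of Trbv segments and of all genes under a threshold, given below, are therefore not like for like. In all, 113 segments passed the filter on low counts and were among the 18423 genes tested.

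The usage of Trbv segments in peritoneal Tregs was compared with that in spleen and thymus. Trbv12-1 and Trbv2 fell and Trbv19 rose in peritoneal cavity against spleen, with both genotypes given equal weight. These were 3 of 23 tested Trbv segments past an edgeR adjusted p of 0.05, against 2.89% of all genes. At an unadjusted p under 0.05, 7 Trbv segments (30.4%) were counted, against 14.4% of all genes. Against thymus, Trbv12-1 and Trbv2 also fell and Trbv1 rose, again 3 of 23 against 5.61% of all genes, and 6 (26.1%) at the unadjusted threshold against 18.2%. None of 90 Trav segments passed in edgeR in either comparison, with 2 at an unadjusted p under 0.05 in each. Limma voom also called 0 Trav segments, and DESeq2 called 1, Trav7-1 against spleen and Trav8n-2 against thymus. With library numbers matched across tissues as a block, 0 segments passed against spleen and 1, Trbv12-1, against thymus. The edgeR adjusted p with that block were 0.0895 for Trbv12-1, 0.124 for Trbv2 and 0.0752 for Trbv19 against spleen, and 0.0444 for Trbv12-1, 0.145 for Trbv2 and 0.184 for Trbv1 against thymus.

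Trbv12-1 (chr6:41113550-41114067) is the segment in which the groups differed most by p. Its share was 3.56, 3.83 and 3.91% in spleen controls and 2.59, 3.26 and 3.62% in spleen dDC libraries. In thymus it was 4.03, 4.42 and 4.52% in controls and 3.21 and 3.58% in dDC libraries. In peritoneal cavity it was 2.67 and 3.39% in controls and 1.36 and 1.31% in dDC libraries. Both peritoneal dDC libraries lay below the other 13 libraries, while the peritoneal controls lay within the range of spleen. Over both genotypes the mean was 2.18 ± 1.02% in peritoneal cavity (SD, n = 4), 3.46 ± 0.485% in spleen (SD, n = 6) and 3.96 ± 0.555% in thymus (SD, n = 5). The log2 change was -0.78 (SE 0.148) against spleen with an edgeR adjusted p of 0.0141, and -0.93 (SE 0.154) against thymus with an adjusted p of 0.00375. In control libraries alone it was -0.31 with an adjusted p of 0.616 and -0.51 with an adjusted p of 0.274, on fewer libraries. The spleen call was also lost without peritoneal control 1 (adjusted p 0.0519), peritoneal dDC 1 (0.0634) or peritoneal dDC 2 (0.0836), while the thymus call was kept without each of the 15 libraries in turn.

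Trbv2 (Vβ4, chr6:41047340-41047995) was lower in peritoneal cavity in both genotypes. Its share was 5.06, 5.54 and 5.80% in spleen controls and 5.62, 4.47 and 4.04% in spleen dDC libraries. In thymus it was 4.37, 6.03 and 5.76% in controls and 4.16 and 5.08% in dDC libraries. In peritoneal cavity it was 2.70 and 1.79% in controls and 4.09 and 2.30% in dDC libraries. The peritoneal range lay below all 5 thymus libraries, and 1 peritoneal dDC library reached the lower edge of spleen. The means were 2.72 ± 0.986% (SD, n = 4), 5.09 ± 0.701% (SD, n = 6) and 5.08 ± 0.823% (SD, n = 5) in peritoneal cavity, spleen and thymus. The log2 change was -0.92 (SE 0.200) against spleen, edgeR adjusted p 0.0310, and -0.89 (SE 0.208) against thymus, adjusted p 0.0260. The spleen call was lost without any of 7 libraries (spleen control 1, 2 or 3, spleen dDC 1 or 2, peritoneal control 2, peritoneal dDC 2), with adjusted p from 0.0518 to 0.142, and in controls alone (-1.28, adjusted p 0.0762). The thymus call was lost without any of 6 (thymus control 2 or 3, thymus dDC 1 or 2, peritoneal control 2, peritoneal dDC 2), with adjusted p from 0.0512 to 0.111.

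Trbv19 (chr6:41178375-41179048) was the segment whose spleen and peritoneal ranges did not overlap. Its share was 8.36, 8.11 and 9.10% in spleen controls and 7.94, 8.89 and 8.24% in spleen dDC libraries. In peritoneal cavity it was 12.5 and 11.8% in controls and 9.62 and 12.5% in dDC libraries. In thymus it was 9.75, 8.41 and 9.81% in controls and 7.74 and 9.71% in dDC libraries, which overlapped spleen. All 4 peritoneal libraries were above all 6 spleen libraries, and 1 peritoneal dDC library lay within the thymus range. The mean was 11.6 ± 1.35% in peritoneal cavity (SD, n = 4) and 8.44 ± 0.458% in spleen (SD, n = 6). The log2 change was 0.46 (SE 0.108) against spleen, edgeR adjusted p 0.0454, and 0.36 (SE 0.114) against thymus, adjusted p 0.102. The spleen call was kept without thymus dDC 1, thymus dDC 2 or peritoneal dDC 1 and lost without any of the other 12 libraries. It held in 6 of 23 alternative fits in all, with an adjusted p of up to 0.263 in the others and the same direction in all 23.

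Trbv1 (Vβ2, chr6:40891229-40891885) is the first segment of the beta locus and lies far from the rest. Its share was 6.23 and 12.9% in peritoneal controls and 9.59 and 11.6% in peritoneal dDC libraries. In thymus it was 5.90, 5.52 and 4.08% in controls and 7.20 and 6.87% in dDC libraries, and in spleen it ran from 6.37 to 7.72%. Peritoneal control 1 lay within the thymus range, and the other 3 peritoneal libraries lay above all spleen and thymus libraries. The log2 change was 0.74 (SE 0.193) against thymus, edgeR adjusted p 0.0465, and 0.52 (SE 0.183) against spleen, adjusted p 0.197. The thymus call was kept without peritoneal control 1 (adjusted p 0.00353) and lost without any of the other 14 libraries. It held in 4 of 23 alternative fits in all, with an adjusted p of up to 0.359 in the others and the same direction in all 23.

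Of the 16 Trbv segments with a mean share of at least 1%, only Trbv19 (higher in peritoneal cavity than in spleen), Trbv2 (lower in peritoneal cavity than in thymus) and Trbv13-2 (lower in thymus than in spleen) had tissue ranges that did not overlap, 1 in each comparison. Of 36 Trav segments at that share, 0 did in any of the 3. The share of all genes with ranges that did not overlap was not computed, so these counts are a description only. Without the 5 libraries that stood apart by Trav usage, no segment passed in either peritoneal comparison, on 10 libraries with a single dDC library in thymus and in peritoneal cavity. The log2 changes there were -0.84 (adjusted p 0.190) for Trbv12-1, -1.06 (0.152) for Trbv2 and 0.55 (0.156) for Trbv19 against spleen. Against thymus they were -0.96 (adjusted p 0.143) for Trbv12-1, -1.18 (0.122) for Trbv2 and 0.75 (0.359) for Trbv1, all in edgeR.

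**Figure D2:**
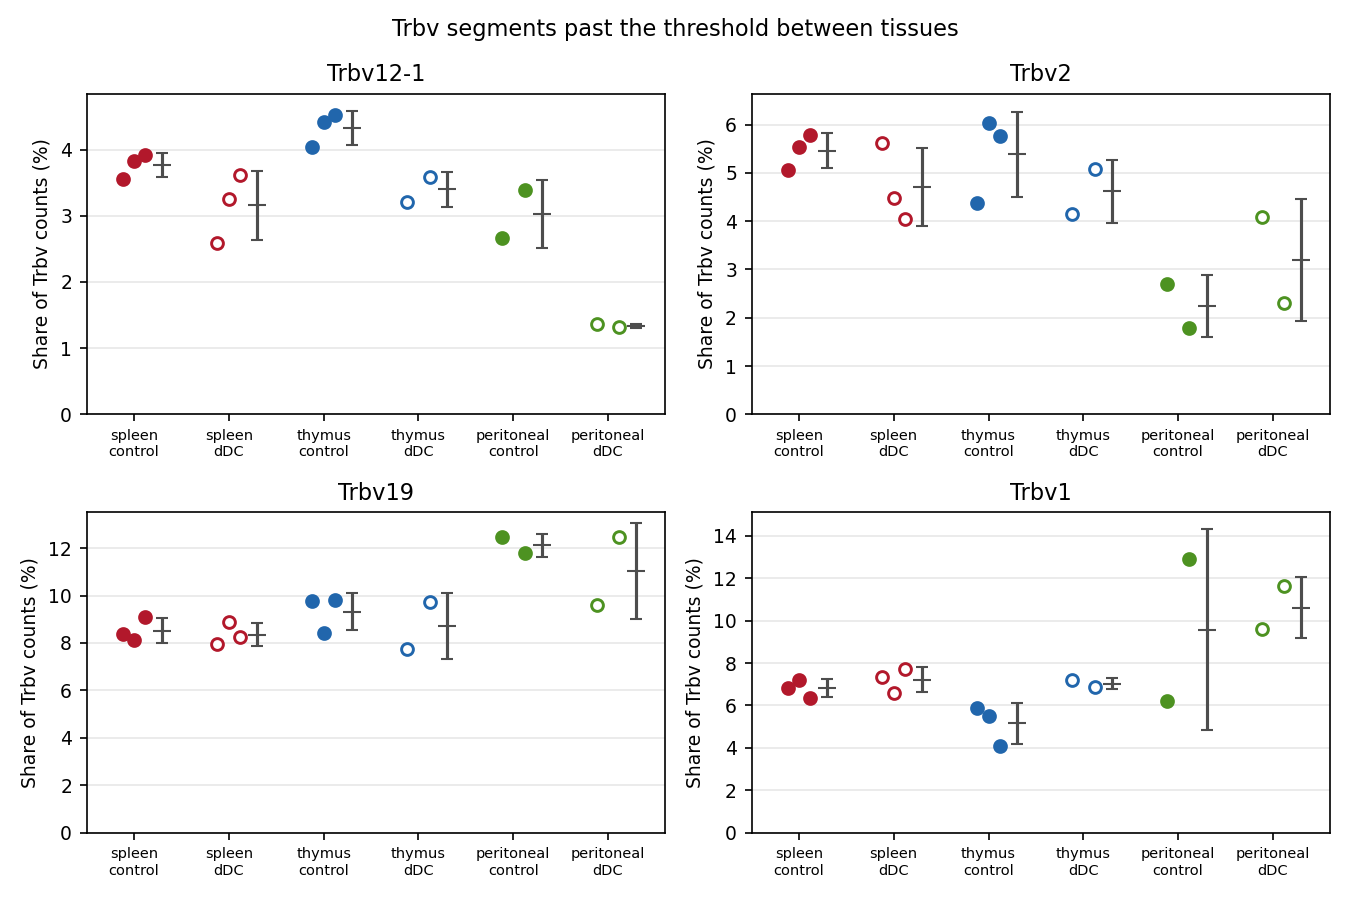
Share of Trbv counts (y axis, percent, from 0) for the 4 segments past the threshold between tissues, in the 6 groups of tissue and genotype (x axis). Points are libraries, filled for control and open for dDC, and the bar beside them is the mean ± SD of the group. Trbv12-1 is lowest in the 2 peritoneal dDC libraries, at 1.36 and 1.31%, and the Trbv1 values of the 2 peritoneal controls lie far apart, at 6.23 and 12.9%.

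No V segment passed the test of usage between thymus and spleen. In edgeR 0 of 113 segments were called, against 1.32% of all genes, and 1 Trbv and 1 Trav segment had an unadjusted p under 0.05, against 12.5% of all genes. Limma voom called 0 segments and DESeq2 called 1, Trav8n-2. Trbv13-2 was 12.997, 11.7 and 13.8% in spleen controls and 11.5, 12.5 and 12.98% in spleen dDC libraries. In thymus it was 11.3, 9.92 and 11.1% in controls and 10.7 and 10.5% in dDC libraries. All 5 thymus libraries lay below all 6 spleen libraries, by a narrow margin. The log2 change of Trbv13-2 was -0.24 (SE 0.0906) with an edgeR adjusted p of 0.297. Trav8n-2 had a change of -2.40 (SE 0.724, edgeR adjusted p 0.159) on 1 to 113 counts per library. Its transcript is 94.96% identical to that of Trav8-2 and 92.58% to that of Trav8d-2. Of its 50-base stretches 71.9% are unique among the annotated transcripts, and the others are shared with related segments.

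The whole-profile distance between 2 libraries, the percent of usage they do not share, was taken as a description. For Trbv, it averaged 7.48 over 12 pairs of the same group, 8.39 over 30 pairs of spleen and thymus, 13.1 over 24 pairs of peritoneal cavity and spleen and 13.7 over 20 pairs of peritoneal cavity and thymus. Pairs within peritoneal cavity were also far apart, at 11.1 in controls and 10.7 in dDC libraries, against 5.70 in spleen controls. For Trav, the same averages were 25.4, 23.9, 24.1 and 26.1, so libraries of 1 group were as far apart as libraries of different tissues. The library nearest to a given one by Trbv was of the same group for 7 of 15 libraries, and by Trav for 1 of 15.

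Next, dDC was compared with control, as the average of the 3 tissue differences and within each tissue. In edgeR 0 of 113 segments passed for the average, against 0.076% of all genes, which is 14 genes. At an unadjusted p under 0.05, 6 of 23 Trbv segments (26.1%) and 0 of 90 Trav segments were counted, against 9.3% of all genes. Limma voom called 0 segments, and DESeq2 called 2, Trbv12-1 (adjusted p 0.000348) and Trbv12-2 (adjusted p 0.00742). The 6 segments are described by their values. Trbv12-1, Trbv12-2 and Trbv3 were lower in dDC libraries, and Trbv31, Trbv16 and Trbv17 were higher.

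Trbv12-1 was below the control mean of its own tissue in all 7 dDC libraries, with the shares given above. The average log2 change was -0.59 (SE 0.119), with an edgeR adjusted p of 0.127. Within tissues the change was -0.26 (SE 0.182) in spleen, -0.35 (SE 0.205) in thymus and -1.18 (SE 0.227) in peritoneal cavity, with edgeR adjusted p of 1, 0.759 and 0.215. The genotype change in peritoneal cavity differed from that in spleen by -0.93 (edgeR p 0.00765, adjusted p 0.998) and from that in thymus by -0.83 (p 0.0173, adjusted p 0.840), so a difference between tissues did not pass.

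Trbv12-2, its close relative, was 5.62, 5.68 and 5.34% in spleen controls and 4.06, 4.56 and 4.13% in spleen dDC libraries. It was 6.12, 5.51 and 6.61% in thymus controls against 5.50 and 4.79%, and 6.15 and 6.02% in peritoneal controls against 4.14 and 4.80%. In each tissue the dDC libraries lay below the controls, in thymus only just. The average log2 change was -0.36 (SE 0.0899) with an edgeR adjusted p of 0.222. The 3 segments of the Trbv12 family together held 8.82 to 11.1% of Trbv counts in the 8 control libraries and 5.53 to 8.72% in the 7 dDC libraries.

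Trbv3 was 11.7, 10.4 and 10.4% in spleen controls and 9.53, 10.7 and 8.70% in spleen dDC libraries. It was 9.11, 10.8 and 10.7% in thymus controls against 8.35 and 8.95%, and 9.52 and 8.82% in peritoneal controls against 7.68 and 6.53%. The groups overlapped in spleen only, and all 7 dDC libraries were below the control mean of their tissue. The average log2 change of Trbv3 was -0.26 (SE 0.0827), edgeR adjusted p 0.354.

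Trbv31 (Vβ14), the inverted last segment, was 5.07, 4.22 and 5.07% in spleen controls and 5.41, 5.27 and 4.84% in spleen dDC libraries. It was 4.96, 4.29 and 4.35% in thymus controls against 6.52 and 5.49%, and 5.06 and 3.38% in peritoneal controls against 5.93 and 6.25%. The groups did not overlap in thymus and peritoneal cavity and overlapped in spleen. The average log2 change of Trbv31 was 0.35 (SE 0.112), edgeR adjusted p 0.351.

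Trbv16 (Vβ11) was 6.06, 7.50 and 5.51% in spleen controls and 7.64, 7.41 and 7.24% in spleen dDC libraries. It was 7.12, 7.13 and 7.33% in thymus controls against 8.09 and 7.41%, and 5.14 and 3.96% in peritoneal controls against 7.13 and 6.37%. All 7 dDC libraries were above the control mean of their tissue, and the average log2 change was 0.30 (SE 0.0969), edgeR adjusted p 0.354. Trbv17 (Vβ9) was above that mean in 6 of 7, with shares of 1.86 to 3.69% in controls and 2.37 to 4.93% in dDC libraries. Its change was 0.58 (SE 0.206), edgeR adjusted p 0.412.

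Within single tissues, 0 of 113 segments passed in edgeR in spleen (0% of all genes), thymus (0%) and peritoneal cavity (0.00543%). At an unadjusted p under 0.05, 1 Trbv and 0 Trav segments were counted in spleen (4.27% of all genes), 0 and 2 in thymus (6.56%) and 5 and 1 in peritoneal cavity (6.37%). Limma voom called 0 in each, and DESeq2 called 0 in spleen, Trav8d-2 in thymus and Trbv12-1 in peritoneal cavity (adjusted p 0.000385). The 6 in peritoneal cavity were Trbv12-1, Trbv12-2 and Trbv3, lower in dDC libraries, and Trbv16, Trbv31 and Trav8d-2, higher. None of the differences between tissues in a genotype change passed for any segment.

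**Figure D3:**
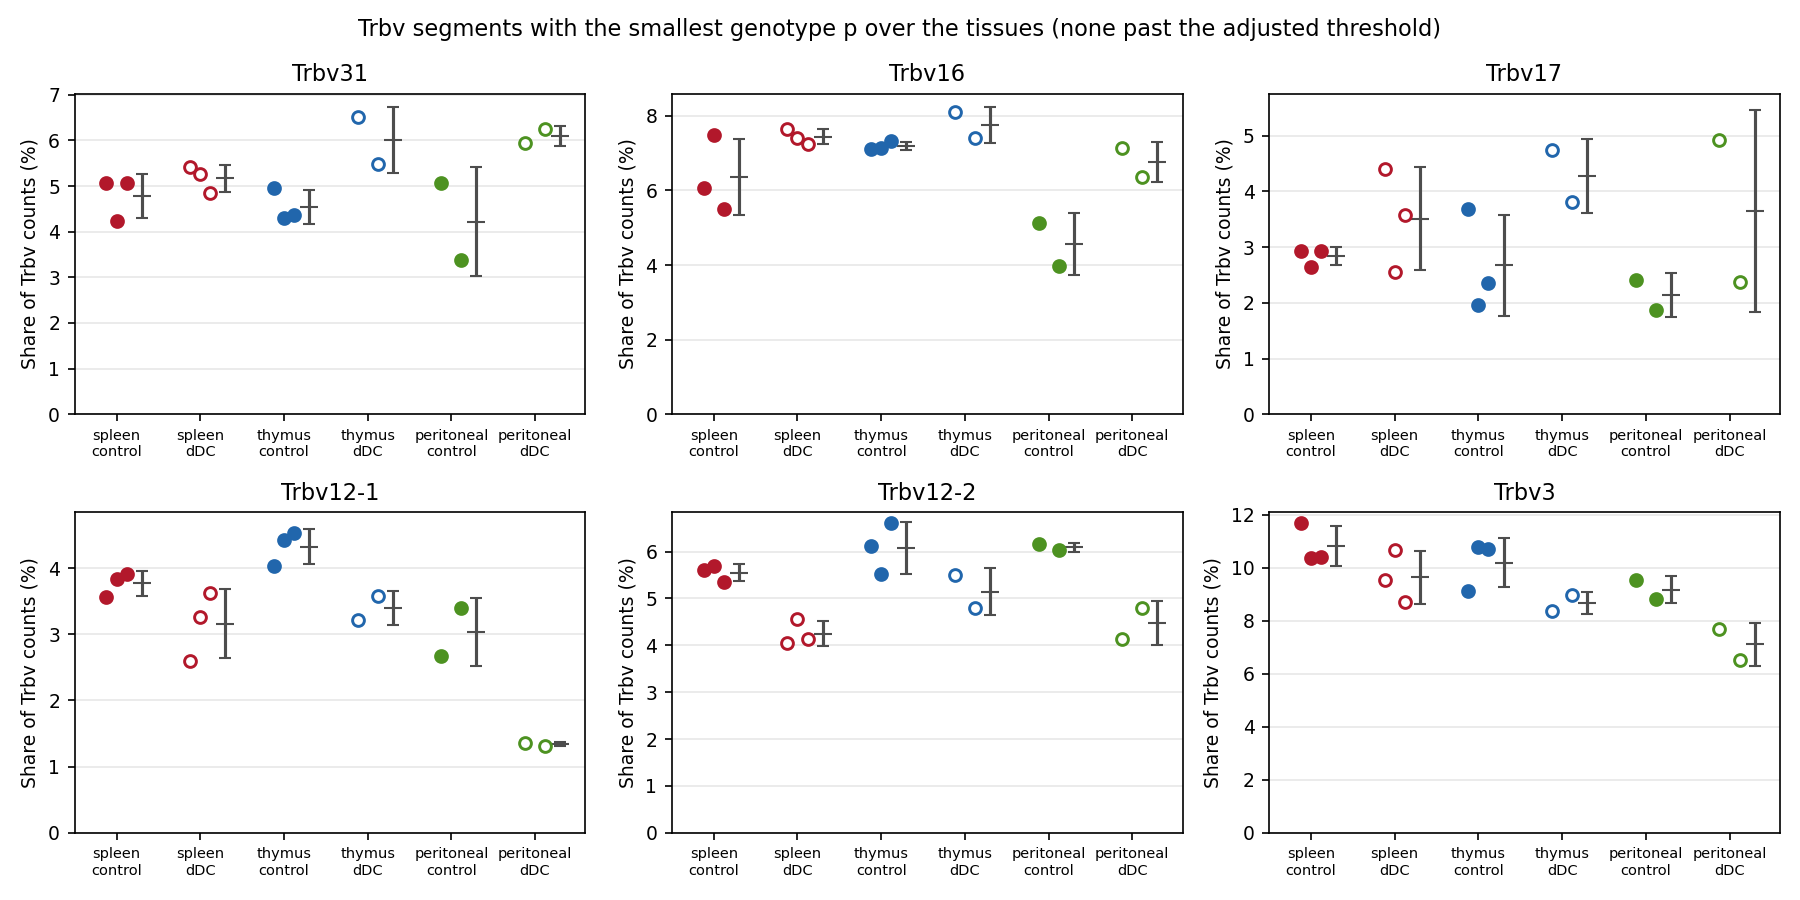
Share of Trbv counts (y axis, percent, from 0) for the 6 segments with the smallest genotype p, in the 6 groups (x axis). Points are libraries, filled for control and open for dDC, and bars are the mean ± SD of a group. Trbv31, Trbv16 and Trbv17 are mostly higher and Trbv12-1, Trbv12-2 and Trbv3 mostly lower in dDC libraries, and none passed the adjusted threshold in edgeR.

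Trav usage was spread over more segments. Of 128 Trav segments, 70 were detected in all 15 libraries and 12 were at 0 in all, and the 20 pseudogenes held 2.06% of Trav counts. Trav3-3 had the highest mean usage, 4.85% of Trav counts and 2.82 to 7.28% in single libraries. Trav7-4 had 4.26% (1.76 to 6.65%), Trav12-2 had 4.04% (1.50 to 5.90%), Trav14d-3-dv8 had 3.54%, Trav4-4-dv10 had 3.27%, Trav13-1 had 3.09%, Trav14-2 had 2.99% and Trav14n-3 had 2.73%. Segments named dv can also be joined in the delta chain of gamma delta T cells. Per base, Trav3-3 stayed first with 4.51%, followed by Trav12-2 (3.70%), Trav7-4 (3.69%) and Trav13-1 (3.64%). The first place differed between libraries, and 7 Trav segments held it in at least 1. The 8 most used segments held 28.5 to 34.6% of Trav counts in a library.

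Counts for the duplicated Trav segments depend on how reads that match several copies were assigned. The last 90 bases of Trav3-3 and Trav12-2 with their d and n copies are shown because they differ at 2 positions, so a read over them can match more than 1 copy. Capitals mark bases that differ from the first of each set, with positions counted from 1 at the 5′ end of the window, and the counts are sums over the 15 libraries.
Trav3-3 (chr14:53666417-53666506, plus strand, 5152 counts): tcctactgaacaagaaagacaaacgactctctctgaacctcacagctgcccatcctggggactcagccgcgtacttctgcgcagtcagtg
Trav3d-3 (chr14:52972949-52973038, plus strand, 303 counts): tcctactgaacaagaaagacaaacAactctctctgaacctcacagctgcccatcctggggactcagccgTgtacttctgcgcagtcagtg
Trav3n-3 (chr14:53284086-53284175, plus strand, 734 counts): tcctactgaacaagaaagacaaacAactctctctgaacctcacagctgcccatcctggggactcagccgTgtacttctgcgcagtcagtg
Trav12-2 (chr14:53616825-53616914, plus strand, 3826 counts): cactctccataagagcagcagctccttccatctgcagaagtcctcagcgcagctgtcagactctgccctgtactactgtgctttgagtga
Trav12d-2 (chr14:52916337-52916426, plus strand, 0 counts): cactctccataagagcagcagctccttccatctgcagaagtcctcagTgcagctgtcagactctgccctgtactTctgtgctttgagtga
Trav12n-2 (chr14:53227311-53227400, plus strand, 6 counts): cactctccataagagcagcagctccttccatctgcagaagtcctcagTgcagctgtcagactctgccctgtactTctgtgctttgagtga
The d and n copies of Trav3-3 carry G25A and C70T, and those of Trav12-2 carry C48T and A75T. Within these windows the d and n copies of a set have the same sequence. Over whole transcripts, Trav12d-2 and Trav12n-2 are 100% identical, and either is 96.95% identical to Trav12-2. Trav12-2 had 3826 counts, Trav12n-2 had 6 and Trav12d-2 had 0. Over the whole locus, the 49 Trav genes in which less than 20% of all 50-base stretches are unique among the annotated transcripts had a median of 79 counts and held 7.82% of Trav counts. The 44 genes with 20 to 80% unique stretches had a median of 1294.5 counts, and the 15 genes with at least 80% had a median of 1609. The 55 segments with no letter held 71.5% of Trav counts, the 39 d copies 15.0% and the 34 n copies 13.5%, so levels of single copies are uncertain. For Trbv this limit is small, since 20 of 21 genes are at least 80% unique and hold 99.0% of Trbv counts.

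Along the locus, usage was uneven. In 8 sets of 16 segments from the far end to the J segments, the seventh set held 33.4% of Trav counts on average (27.1 to 38.7%), the sixth 18.5% and the eighth, nearest the J segments, 11.4%. At the far end the first set held 13.5% and the second 2.14%. The 64 segments nearest the J segments, from Trav5n-3 on, held 63.3 to 67.5% in 5 libraries and 71.8 to 77.0% in the other 10. The 5 libraries came from 5 of the 6 groups, with none from peritoneal controls. The labels number the libraries without saying what a number stands for. When 10 is taken from thymus and 16 from peritoneal numbers to match them to spleen, the 5 are all 3 libraries matched to number 2, from dDC mice, and both matched to number 5, from controls, so no matched set was split between the 5 and the 10. Over 82 Trav segments with a mean of at least 10 counts, the deviations of log2 usage from the group means had a median correlation across segments of 0.173 (-0.054 to 0.541) in the 12 matched pairs of libraries from different tissues. It was -0.093 (-0.442 to 0.261) in 25 unmatched pairs of the same genotype. In 37 pairs of different tissue and genotype it was 0.043 (-0.360 to 0.458). Over 22 Trbv segments the 3 medians were -0.113, 0.042 and 0.024. Segments are not independent and deviations within a group sum to 0, so these values are a description. The 5 libraries are those below the widest gap in the share of these 64 segments, which is made of the same Trav shares. Separation of single Trav segments is therefore partly built in by that choice, and no other split was compared. Among 56 Trav segments with a mean share of at least 0.5%, the ranges of the 5 and the 10 libraries did not overlap for 5 segments. The share of all genes with such ranges was not computed for this split, so the count is a description only. Trav7d-4 (2.25 to 2.84% against 1.06 to 2.10%), Trav9d-1 (1.15 to 1.50% against 0.227 to 0.781%), Trav4-2 (1.82 to 2.65% against 0.326 to 1.64%) and Trav3-3 (5.64 to 7.28% against 2.82 to 5.01%) were higher in the 5. Trav14n-3 was lower in the 5, at 0.937 to 1.89% against 2.11 to 5.26%. For the share of these 64 segments, the genotype and tissue contrasts had an exact permutation p from 0.430 to 0.830.

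**Figure D4:**
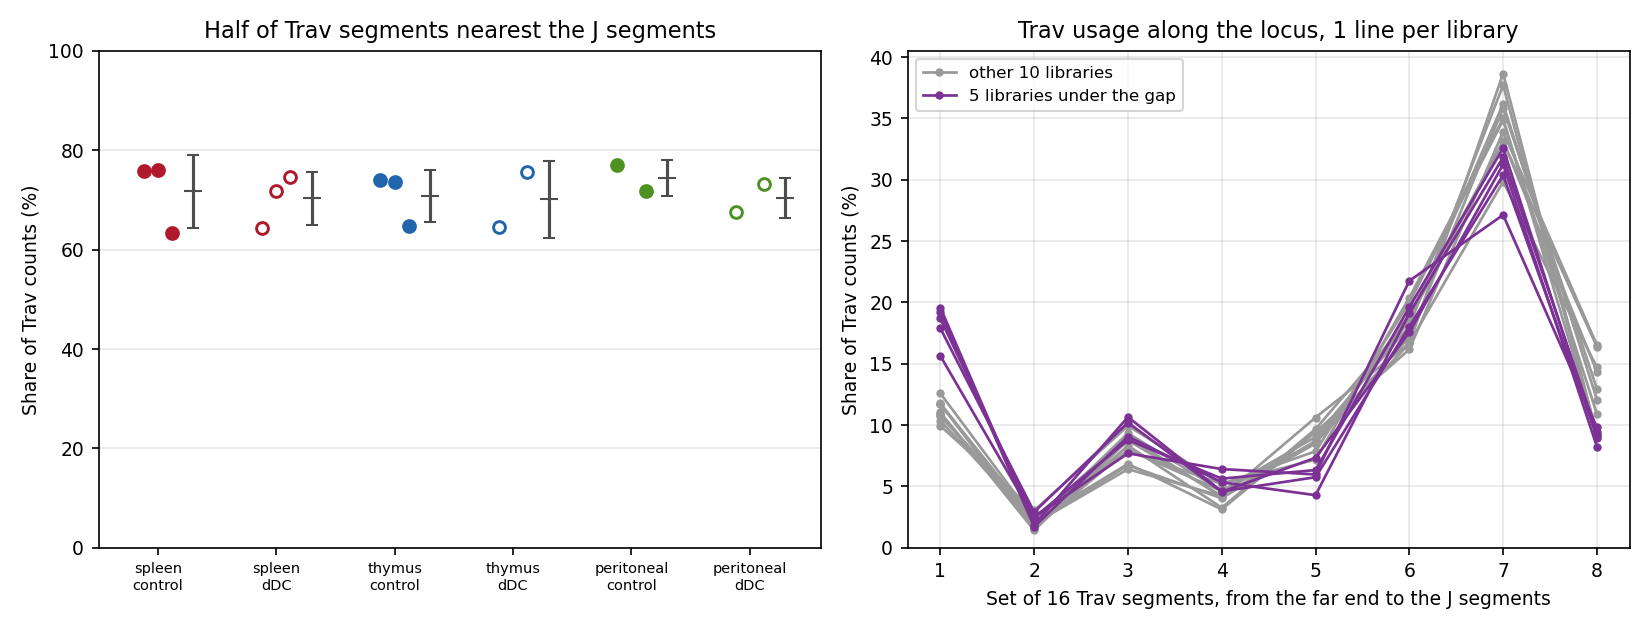
Left, share of Trav counts (y axis, percent, 0 to 100) in the 64 Trav segments nearest the J segments, by group (x axis), with points as libraries (filled control, open dDC) and bars as mean ± SD. Right, share of Trav counts (y axis, percent) in 8 sets of 16 segments along the locus (x axis), with 1 line per library and the 5 libraries under the gap in purple. The 5 libraries lie between 63.3 and 67.5% on the left, and the other 10 between 71.8 and 77.0%.

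The summed level of all V segments was compared next, with each total as 1 value per library. Total Trav was 409.7 ± 49.97 CPM (SD, n = 3) in spleen controls and 441.8 ± 35.7 CPM (SD, n = 3) in spleen dDC libraries. It was 350.5 ± 15.8 CPM (SD, n = 3) in thymus controls and 350.9 and 360.8 CPM in the 2 thymus dDC libraries, and 244.2 ± 12.8 CPM (SD, n = 2) and 301.5 ± 52.5 CPM (SD, n = 2) in peritoneal cavity. Thymus and peritoneal libraries each lay below all spleen libraries. The difference from spleen was -72.6 CPM for thymus (exact permutation p 0.005) and -152.9 CPM for peritoneal cavity (exact permutation p 0.01), and between peritoneal cavity and thymus it was -80.3 CPM (exact permutation p 0.0167). These are the smallest p that 200, 100 and 60 relabellings can give, and each had an adjusted p of 0.08 over the 24 exact tests of single values, of which 0 passed.

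Total Trbv was 1261 ± 133 CPM (SD, n = 3) and 1288 ± 65.1 CPM (SD, n = 3) in spleen controls and dDC libraries, and 1112 ± 32.5 CPM (SD, n = 3) and 1228 ± 163 CPM (SD, n = 2) in thymus. In peritoneal cavity it was 936.1 ± 180 CPM (SD, n = 2) and 1045 ± 77.6 CPM (SD, n = 2), below all spleen libraries. The difference from spleen was -284.4 CPM (exact permutation p 0.01, adjusted 0.08). Genotype differences of the totals were 31.6 CPM for Trav (exact permutation p 0.102) and 84.0 CPM for Trbv (exact permutation p 0.178), within the spread of the libraries. In bulk libraries, fewer T cells in a sample and less receptor RNA per cell cannot be told apart, and of the markers given above those of B cells were highest in peritoneal cavity and those of erythroid cells in spleen. Set against the summed counts of Cd3d, Cd3e, Cd3g and Cd247, whose products form the CD3 complex, the Trav total had a log2 ratio of -3.74 and -3.76 in peritoneal controls and dDC libraries and -3.46 and -3.40 in spleen. In thymus it was -3.49 in both genotypes, a difference from spleen of -0.06 (exact permutation p 0.355), against -0.32 for peritoneal cavity (exact permutation p 0.01, adjusted 0.08). For Trbv that ratio was -1.81 and -1.96 in peritoneal cavity and -1.83 and -1.85 in spleen.

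**Figure D5:**
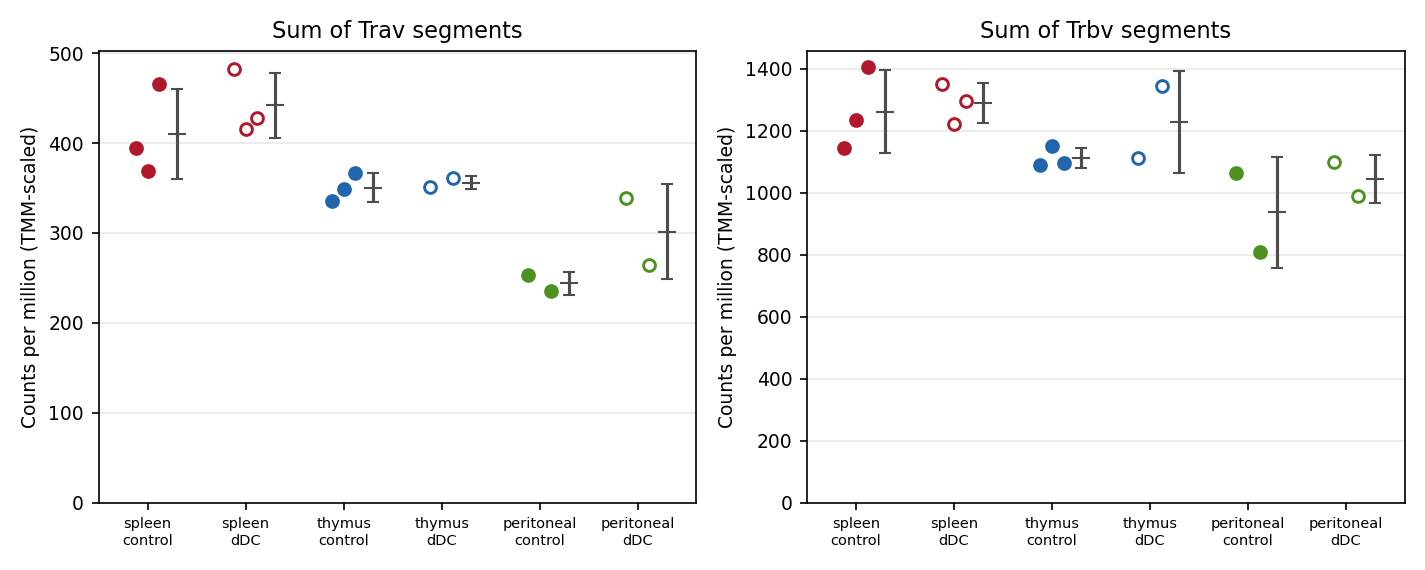
Summed CPM (y axis, TMM-scaled, from 0) of all Trav rows (left) and all Trbv rows (right) in the 6 groups (x axis). Points are libraries, filled for control and open for dDC, and bars are the mean ± SD. All 4 peritoneal libraries lie below all 6 spleen libraries in both sums.

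Single segments tested by level, as CPM against the whole library, gave 4 lower and 0 higher Trbv segments in peritoneal cavity against spleen in edgeR, against 2.89% of all genes called and 1.66% called lower. They were Trbv12-1 at -1.15 (adjusted p 0.00229), Trbv2 at -1.26 (0.0244), Trbv3 at -0.69 (0.0188) and Trbv16 at -0.66 (0.0443) on the log2 scale. Against thymus there were 3, all lower, against 2.58% of all genes called lower, and these were Trbv12-1 at -1.19 (adjusted p 0.00136), Trbv2 at -1.11 (0.0331) and Trbv16 at -0.65 (0.0349). Trbv3 was 136 ± 9.22 CPM (SD, n = 3) and 124 ± 9.79 CPM (SD, n = 3) in spleen controls and dDC libraries and 86.3 ± 21.2 CPM (SD, n = 2) and 74.5 ± 14.0 CPM (SD, n = 2) in peritoneal cavity. By usage, Trbv3 and Trbv16 did not pass in these comparisons. The level calls of Trbv12-1 were kept without each of the 15 libraries in turn, that of Trbv3 was lost without peritoneal control 2 (edgeR adjusted p 0.0880) or peritoneal dDC 2 (0.112), and those of Trbv2 were lost without either of these libraries and without some others (edgeR adjusted p up to 0.137). The Trbv16 level call was lost without any of 14 of the 15 libraries against spleen and any of 10 against thymus (edgeR adjusted p up to 0.222). The median log2 change of the 23 Trbv segments by level was -0.34 against spleen, beside -0.03 for all genes tested, and that of the 90 Trav segments was -0.65. In edgeR 0 Trav segments were past the threshold and 9 of 90 had an unadjusted p under 0.05. In the usage fit of the same genes, 14.4% of all genes were under that unadjusted threshold, so the 9 are not more than among all genes.

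Other genes of the receptor were compared by level as well. Of 19 genes of the receptor complex and of V(D)J recombination found in the table, 17 were tested by level. In peritoneal cavity against spleen 7 fell and 0 rose, against 1.66% of all genes called lower, and the median log2 change of the 17 was -0.40. Trac, the alpha constant region that rearranged Trav segments are spliced to, fell by 0.70 on the log2 scale (SE 0.0648, edgeR adjusted p 0.000128), from 2576 ± 236 CPM (SD, n = 3) in spleen controls to 1560 ± 73.7 CPM (SD, n = 2) in peritoneal controls. Trbc2, a beta constant region, fell by 0.45 (edgeR adjusted p 0.00368), and Cd3e and Cd3g, signalling subunits of the receptor, fell by 0.33 and 0.40. The proximal kinases Lck and Zap70 and the adaptor Lat also fell, by 0.71, 1.04 and 0.56. Foxp3 did not pass, with a change of 0.23 (edgeR adjusted p 0.479). Against thymus 6 fell, against 2.58% of all genes called lower, and these were Trac, Lck, Lat, Zap70 and the recombination genes Rag1 and Dntt. In thymus against spleen Trac fell by 0.30 (edgeR adjusted p 0.0305) and Rag1, a subunit of the recombinase, rose (edgeR adjusted p 0.00514), against 1.32% of all genes called. Rag1 was at 0 to 0.056 CPM in the 6 spleen libraries, 2.85 to 9.69 CPM in the 5 thymus libraries and 0 in the 4 peritoneal libraries. Rag1 was at 2.85 to 9.69 CPM in thymus and at 0.056 CPM or less elsewhere, and Ptcra, the surrogate alpha chain of immature thymocytes, was at 2.21 CPM or less. In the genotype comparisons 0 of the 17 passed in edgeR.

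The evenness of usage was summarised as the effective number of segments, the exponential of the Shannon entropy of the shares. It was 50.1 to 60.2 for Trav and 15.1 to 16.6 for Trbv over the 15 libraries. No contrast of genotype or tissue reached an exact permutation p under 0.05 for either chain. The Trbv12 and Trbv13 segments together averaged 35.7% in controls and 33.2% in dDC libraries, a difference of -2.49 percentage points, lower in 3 of 3 tissues (exact permutation p 0.0417, adjusted p 0.167). In peritoneal cavity against spleen the difference was -3.25 points (exact permutation p 0.06, adjusted p 0.206). By genotype, the Trbv13 family alone held 24.2 to 29.5% in control and 23.5 to 29.6% in dDC libraries. The Trbv12 family alone held 8.82 to 11.1% and 5.53 to 8.72%. The genotype difference of the sum therefore restates the Trbv12 values above and is not a separate result.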

How the data were processed

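RNA of sorted Tregs was sequenced in bulk in 15 libraries. Per the labels' protocols, cDNA was made from a poly-dT primer with template switching, amplified for 12 cycles, sheared, and made into unstranded libraries with 15 further cycles. The submitters' processing notes name bcl2fastq 2.19.1, the aligner GSNAP and featureCounts 1.6.0, with mm10. For the strand setting and for reads matching several places, the rule is not given in the sources used here. Raw counts per gene were deposited by the authors as 1 table. Symbols came from GENCODE M21, which matched 98.8% of gene rows. Without molecular identifiers, reads are not independent molecules.

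Genes were kept with filterByExpr, which left 18423. A quasi-likelihood model was fitted in edgeR 4.0.16 (R 4.3.3) with 6 group means and 9 residual degrees of freedom. For usage, the offset of Trav and Trbv rows was the log of the chain total, and for level it was the TMM library size. Tests were two-sided with Benjamini-Hochberg adjustment over all genes at 0.05. Single values were compared by exact permutation within tissues or genotypes, in 24 tests. Limma 3.58.1 (voom) and DESeq2 1.42.0 were alternatives. Of the fits, only the edgeR usage fit was run on simulated data. Counts there were drawn independently, without matched libraries or reads shared between copies, so that run does not address those limits. Named segments were the 8 most used of each chain, those past the threshold, and the 3 with the smallest p per direction where fewer than 6 passed. Members and lists were chosen with earlier results of these data known. Whether library numbers matched across tissues mark a shared source is not given in the labels. Over all genes the correlations of deviations of matched numbers were 0.004 to 0.083. Over Trav usage 8 of 12 matched pairs were over 0.1, against 3 of 25 unmatched pairs of the same genotype and 16 of 37 pairs of different genotypes. Over Trbv usage these counts were 4 of 12, 12 of 25 and 15 of 37. Deviations within a group sum to 0, so unmatched pairs of the same genotype go down where matched pairs go up. The block was added after seeing the data, so the main fit is without it and the blocked values are printed beside the calls. The Trav correlations give no ground for leaving the block out. If matched libraries share a source, p-values of the fit without the block do not allow for it. Of the 162 rows, 49 were below the filter and are described by their counts only.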

Additional observations from a re-analysis of the deposited data

How the results depend on the processing

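Trbv12-1, Trbv2, Trbv19 and Trbv1 kept their direction in every alternative. DESeq2 called more segments by usage: 2 for the genotype average, 1 in thymus, 1 in peritoneal cavity, 1 for thymus against spleen, 5 for peritoneal cavity against spleen and 6 against thymus. By level it called 1, 1, 1, 1, 8 and 8. In control libraries only, usage gave 0 and 1 in the 2 peritoneal comparisons and level 0 and 0, on fewer samples. Without the 5 libraries that stood apart, chosen after seeing the data, all 4 counts were 0. With a replicate block of matched library numbers across tissues, also added after seeing the data, usage gave 0 and 1 and level 1 and 1. With a replicate block of neighbouring numbers the genotype counts stayed at 0, and the tissue contrasts could not be fitted. Whether the numbers pair the samples is not settled by these values.

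Leaving out 1 library at a time gave 0 to 4 usage calls for peritoneal cavity against spleen, 1 to 7 against thymus, 0 to 1 for thymus against spleen and 0 to 3 for the genotype in peritoneal cavity. By level the ranges were 1 to 9, 1 to 10, 0 to 1 and 0 to 2, and 0 to 1 for the genotype average. The highest counts of the peritoneal comparisons with thymus and by level came without peritoneal control 1.

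The reversals of single values were of differences that did not pass the exact test. The effective number of Trav segments differed by genotype by 0.00934, which became -0.521 as an inverse Simpson index, -0.260 with copies summed, -0.0246 without segments under 10 counts, -0.0670 when thinned to equal depth and -0.710 without the 5 libraries. Its thymus-spleen difference became 0.484 with copies summed and 0.755 without the 5. The Trbv total became -0.0152 for genotype and 0.0770 for thymus against spleen as a log2 ratio to CD3, and 8.48 without the 5. The effective number of Trbv segments became -0.312 for genotype without the 5. The share of the 64 Trav segments nearest the J segments became 0.379 for thymus against spleen when 43 segments were taken and 0.0821 without the 5, and its peritoneal differences became -0.818 and -0.900. Without 1 library, the effective Trav number ranged from -1.59 to 1.604 (genotype), -2.14 to 0.146 (thymus against spleen) and -4.42 to 0.366 (peritoneal cavity against thymus). The effective Trbv number ranged from -0.0695 to 0.353 (genotype), the share of the 64 segments from -3.31 to 2.15, -0.759 to 2.77 and -0.796 to 4.66 (tissues), and the Trbv12 and Trbv13 share from -1.74 to 0.157 (thymus against spleen). Among rare segments, thymus against spleen became -2.79 for Trav22 and -1.03 for Trbv22 without the 5, and without 1 library they ran from -0.476 to 3.99 for Trbv22 and, in peritoneal cavity against thymus, from -3.47 to 1.37 for Trav6-2. The cause of these changes was not tested. The rare segments rest on few counts.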

Other observations

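A few segments were present in only some libraries. Trav18 had 14, 26 and 52 counts in spleen control 1, spleen dDC 3 and thymus dDC 1 and 0 in the other 12 libraries. Trav22, a pseudogene, had 16, 27 and 53 counts in spleen dDC 3, thymus control 3 and thymus dDC 1 and 0 elsewhere. Trbv22, also a pseudogene, had 35 counts in spleen dDC 3, 21 in thymus control 3, 40 in thymus dDC 1 and 23 in thymus dDC 2, and 0 to 11 in the other 11. Trav9-2 ran from 0 to 5.90% of Trav counts, with both ends in peritoneal cavity. These values name libraries that hold a segment, and no test was run on them beyond the fit over all genes.

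Trbv4 was not analysed here. A row named 5830405F06Rik overlaps Trbv5 by 292 of 368 bases and held 12414 counts. Its level was 43.7 ± 5.60 CPM (SD, n = 3) in spleen controls, 51.1 ± 4.68 CPM (SD, n = 3) in thymus controls and 22.8 ± 1.44 CPM (SD, n = 2) in peritoneal controls. Reads of that row and of Trbv5 cannot be told apart where they overlap, so Trbv5 usage is uncertain. Whether that row also holds reads of Trbv4 was not tested.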
